A study of Mus musculus with 24 samples.

Results

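The 10 genes described here encode regulators of G protein signaling (RGS proteins). They were chosen by name as Rgs1, Rgs2, Rgs3, Rgs4, Rgs5, Rgs6, Rgs10, Rgs14, Rgs16 and Rgs19. All 10 were present among the 14912 genes of the expression table. RNA-seq was performed on the left ventricle of wild-type (WT) male C57BL/6J mice, whose hearts had been flushed with saline. The hypertensive left ventricular hypertrophy (LVH) group, called the ANG II group below, was infused over 7 days with angiotensin II (ANG II) from mini-pumps under the skin, at a dose of 1500 ng/kg/min, and the control group received saline over 7 days. There were 12 samples in each group. The age of the mice was not given in the sources used here. The infusion acts on the whole animal, so a direct effect of ANG II on the heart and an effect of raised pressure cannot be told apart. Levels are given as FPKM, in which sequenced fragments are scaled to transcript length and to the size of the library.

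A receptor coupled to a heterotrimeric G protein switches its alpha subunit on by exchanging GDP for GTP. RGS proteins bind the active alpha subunit, speed up GTP hydrolysis and so shorten the signal. The ANG II type 1 receptor signals mainly through alpha subunits of the Gq and G12/13 classes, whereas chemokine, muscarinic and adenosine receptors of the heart and of leukocytes use the Gi class. Rgs1, Rgs2, Rgs3, Rgs4, Rgs5 and Rgs16 belong to the R4 family of mostly small RGS proteins, Rgs6 to the R7 family, Rgs10 and Rgs14 to the R12 family and Rgs19 to the RZ family.

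In the GENCODE vM21 annotation (GRCm38), 5 of the 10 genes lay on chromosome 1. Rgs2 (chr1:143999338-144004161, minus strand) and Rgs1 (chr1:144242296-144249242, minus strand) were separated by 238134 bases. Rgs5 (chr1:169655501-169695813, plus strand) and Rgs4 (chr1:169741477-169747642, minus strand) were separated by 45663 bases. Rgs16 was at chr1:153740349-153745468 (plus strand). The other five were Rgs19 (chr2:181688419-181693977, minus strand), Rgs3 (chr4:62559847-62704001, plus strand), Rgs10 (chr7:128373621-128418758, minus strand), Rgs6 (chr12:82588292-83162056, plus strand) and Rgs14 (chr13:55369732-55384687, plus strand). An antisense gene, Gm28513, shares 1917 bases with Rgs16 on the opposite strand. Because the counting was not stated to use strand, reads of Rgs16 and Gm28513 cannot be told apart, and the same holds for antisense genes within Rgs3 and Rgs6. Gm15503, a processed transcript, shares 3374 bases with Rgs10 on the same strand, so the assignment of reads there is uncertain for Rgs10.

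RefSeq promoter windows (GRCm38.p6, 250 bases before to 50 bases after a start of transcription) were found for 8 of the 10 members, Rgs1 and Rgs14 being the ones without. The windows of the 4 members that differed between the groups are shown first, 5′ to 3′ on the strand of the gene. Capitals mark a match to GAGGAAGT, a PU.1-type motif, in Rgs19, and to TATAAA in Rgs4.
Rgs10 chr7:128418123-128418422: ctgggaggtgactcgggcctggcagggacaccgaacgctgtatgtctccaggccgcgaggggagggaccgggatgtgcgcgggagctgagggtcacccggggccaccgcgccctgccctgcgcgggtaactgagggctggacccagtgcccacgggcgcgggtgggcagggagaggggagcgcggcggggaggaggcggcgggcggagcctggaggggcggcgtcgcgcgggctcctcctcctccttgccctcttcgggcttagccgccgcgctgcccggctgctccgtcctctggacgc
Rgs16 chr1:153740103-153740402: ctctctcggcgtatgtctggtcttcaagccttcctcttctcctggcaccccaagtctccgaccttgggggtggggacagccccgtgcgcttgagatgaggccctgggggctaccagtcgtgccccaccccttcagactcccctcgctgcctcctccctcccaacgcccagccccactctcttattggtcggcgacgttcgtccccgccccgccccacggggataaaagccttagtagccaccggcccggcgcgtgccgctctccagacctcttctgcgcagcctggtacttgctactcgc
Rgs19 chr2:181693928-181694227: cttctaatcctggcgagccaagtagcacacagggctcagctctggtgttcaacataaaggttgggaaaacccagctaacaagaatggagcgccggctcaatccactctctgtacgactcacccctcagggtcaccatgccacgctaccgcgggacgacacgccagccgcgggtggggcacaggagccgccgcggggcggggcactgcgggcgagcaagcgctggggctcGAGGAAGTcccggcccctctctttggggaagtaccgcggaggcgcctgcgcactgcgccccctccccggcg
Rgs4 chr1:169747593-169747892: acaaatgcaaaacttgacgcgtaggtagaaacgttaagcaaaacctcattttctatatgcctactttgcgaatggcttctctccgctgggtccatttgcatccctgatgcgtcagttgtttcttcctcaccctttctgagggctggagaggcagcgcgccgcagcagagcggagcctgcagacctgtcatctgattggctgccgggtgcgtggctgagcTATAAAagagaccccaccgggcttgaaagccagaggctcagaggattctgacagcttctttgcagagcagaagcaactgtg
The windows of Rgs10 and Rgs19 lie on the minus strand of their chromosomes, as does that of Rgs4, and the window of Rgs16 lies on the plus strand. The Rgs10 window was 76% G and C with 34 CG dinucleotides. That of Rgs4 was 53% G and C with 13 CG dinucleotides, against medians of 52.7% and 7 over all promoter windows.

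On both strands of the 11 member windows, 6 motifs were searched. GAGGAAGT was present in 2 windows, both of Rgs19 and overlapping one another, against 3.2% of all 32851 windows. TATAAA was present in 3 windows, those of Rgs4 and of both Rgs3 starts, against 13.6% of all windows. TGACTCA (AP-1, 5.2% of all windows), TGACGTCA (CRE, 1.79%), CCGGAAGT (ETS, 3.89%) and the CArG box (1.63%) matched 0 of the 11 member windows. No binding data were analysed here.

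The level of the members differed widely in the control ventricle. Rgs5, a gene known for its expression in pericytes, was the most abundant at 146 ± 13.6 FPKM (SD, n = 12), a level above the mean of 96.7% of the genes in the table. Rgs5 alone made up 62.5% to 71.4% of the summed FPKM of the 10 members in control samples and 63.2% to 75.3% in ANG II samples. Rgs3 (20.3 ± 3.37 FPKM) and Rgs2 (16.8 ± 2.07) followed, and their ranges overlapped. Rgs4 (8.59 ± 1.11), Rgs10 (8.20 ± 2.21), Rgs6 (6.71 ± 0.70) and Rgs19 (5.06 ± 1.27) formed a middle tier with overlapping neighbours. Rgs16 (0.721 ± 0.342), Rgs14 (0.573 ± 0.189) and Rgs1 (0.463 ± 0.305) were near the lower end, and their ranges overlapped too. The ranges of neighbours did not overlap between Rgs5 and Rgs3, between Rgs2 and Rgs4, or between Rgs19 and Rgs16. In ANG II samples Rgs10, at 14.1 ± 4.88 FPKM, came next to Rgs2 (15.7 ± 3.98) and lay above Rgs19 in 12 of 12 samples. Rgs4 and Rgs19 then stood at 7.00 ± 1.40 and 7.04 ± 1.88 FPKM.

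**Figure D1:**
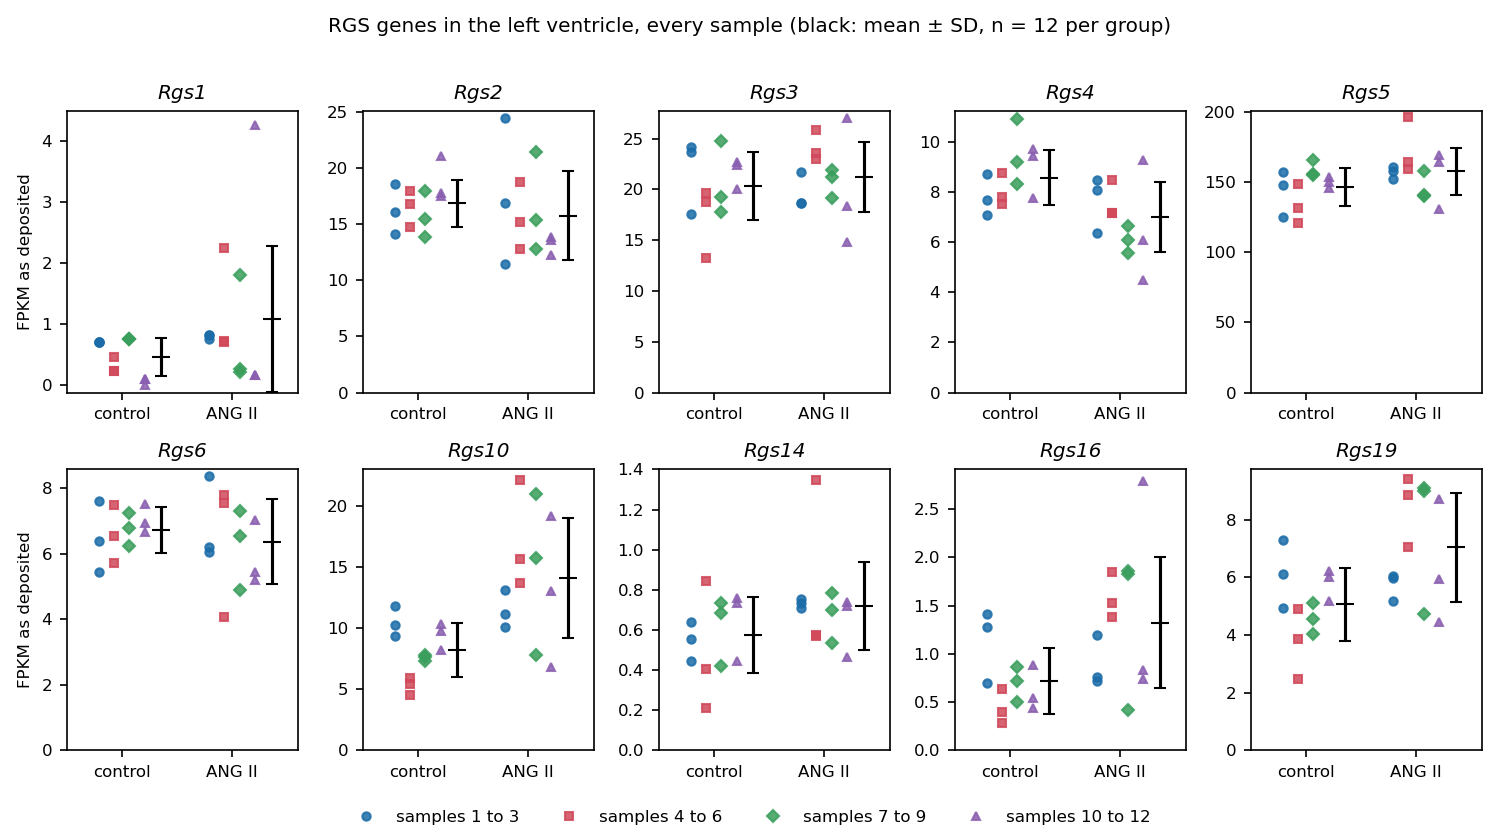
FPKM of each RGS gene (vertical axis, as deposited) in every control and ANG II sample, with 1 panel per gene, its own scale, and marker shape and colour for the 4 sets of samples. Black marks give the mean ± SD of 12 samples, and the ANG II samples of Rgs10 reach 22.1 FPKM while the highest control is at 11.8.

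Between the groups, 3 of the 10 members were higher in ANG II ventricles (Rgs10, Rgs16 and Rgs19) and 1 was lower (Rgs4) at an adjusted p under 0.05 (limma on log2(FPKM + 1), Benjamini-Hochberg over 14026 genes tested). The other 6 (Rgs1, Rgs2, Rgs3, Rgs5, Rgs6 and Rgs14) did not pass. Of all genes tested, 20.9% were higher and 12.6% were lower by the same rule, so the members' counts lay near the background. The median log2 difference of the 10 members was 0.12, against 0.05 for all genes tested. With the further criterion for a differentially expressed gene (DEG), an absolute log2 difference over 0.5, only Rgs10 remained, while 4.52% of all genes tested met both criteria upward and 5.92% in either direction. All 10 members passed the filter on low values, a mean of at least 0.1 FPKM. The tissue is a mixture of cells, so more cells of a type and more RNA per cell cannot be told apart in any of these values.

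**Figure D2:**
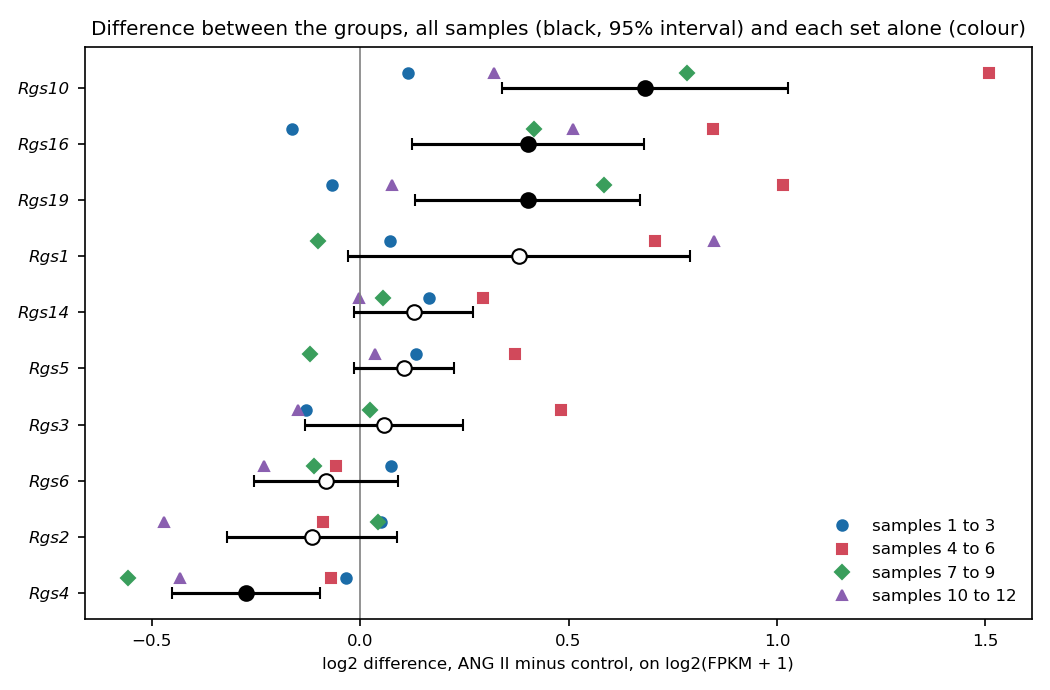
Log2 difference between ANG II and control on the log2(FPKM + 1) scale (horizontal axis) for each RGS gene, as the estimate from 24 samples with its 95% interval (black, filled where the adjusted p was under 0.05) and as the difference within each set of samples (coloured). Rgs10 has the highest estimate, 0.68, and in samples 4 to 6 reaches 1.51.

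The samples fall into 4 sets, numbers 1–3, 4–6, 7–9 and 10–12 in each group, in which the values of each gene were adjusted before deposit. For each member the spacing of the values was matched by the following model. A difference between ANG II and control, taken as the same in the 4 sets, was set aside. What remained was shifted and scaled set by set, and the difference was put back. The difference between the groups within a set was thereby itself changed. The common difference fitted by this model was 7.40 FPKM for Rgs10, 2.49 for Rgs19, 0.633 for Rgs16, -0.885 for Rgs4 and 1.20 for Rgs1. That it is shared by the sets is a part of the model and was not found in each set separately. Each set has 3 control and 3 ANG II samples, so each difference is also given per set, in this order. Over all genes tested the median log2 difference was -0.01, 0.18, -0.02 and 0.03 in the 4 sets, so samples 4 to 6 stood apart. What the labels tie a set to (a day or a sequencing run) was not given in the sources used here. The members' values before that adjustment could be recovered up to an unknown offset per set, and they are set beside the deposited ones. On the scale of these values, a test that exchanges samples within sets has 160000 relabelings.

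Rgs10 acts on alpha subunits of the Gi class and is abundant in microglia, macrophages and lymphocytes. The lowest, median and highest control samples were at 4.54, 7.99 and 11.8 FPKM, and the ANG II samples were at 6.79, 13.4 and 22.1 FPKM. The groups overlapped, with 8 of 12 ANG II samples above the highest control and 10 of 12 above the control median. The log2 difference was 0.68 ± 0.17 (SE, limma adjusted p = 0.0031), and 2.99% of the genes tested had a larger absolute change. As deposited it was positive in all 4 sets, at 0.12, 1.51, 0.79 and 0.32. In samples 1 to 3 the difference before the adjustment was -0.343 FPKM. In samples 4 to 6 the lowest ANG II sample (13.7 FPKM) lay above the highest control (5.89 FPKM), whereas ANG II samples 9 and 12, at 7.82 and 6.79 FPKM, were the lowest of their group. Without samples 4 to 6 the log2 difference was 0.41 and no longer passed (limma adjusted p = 0.094).

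Rgs19, also named GAIP, was found through its binding to a Gi alpha subunit. Control samples ranged from 2.48 to 7.29 FPKM with a median of 5.02, and ANG II samples ranged from 4.46 to 9.41 FPKM with a median of 6.55. The ranges overlapped, although 10 of 12 ANG II samples lay above the control median and 5 above the highest control. On the log2 scale the groups differed by 0.40 ± 0.13 (SE, limma adjusted p = 0.021). It was -0.07, 1.01, 0.58 and 0.08 in the 4 sets, largest in samples 4 to 9, and without samples 4 to 6 it was 0.20 (limma adjusted p = 0.29). Without samples 7 to 9 it was 0.34 (limma adjusted p = 0.10). As for Rgs10, ANG II samples 9 and 12 had the lowest levels of the ANG II group, at 4.72 and 4.46 FPKM.

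Rgs16, a small R4 member that acts on Gi and Gq alpha subunits, was present at a low level. Control samples were at 0.287, 0.665 and 1.41 FPKM (lowest, median and highest), and ANG II samples were at 0.415, 1.29 and 2.79 FPKM. All but 1 ANG II sample lay above the control median, and 5 of 12 lay above the highest control. The log2 difference was 0.40 ± 0.14 (SE, limma adjusted p = 0.025) on the log2(FPKM + 1) scale, which understates the change of a gene at this level. With a pseudocount of 0.1 it was 0.74. In the 4 sets it was -0.16, 0.85, 0.42 and 0.51. Leaving out samples 4 to 6, 7 to 9 or 10 to 12 each ended the call, with values of 0.25, 0.40 and 0.37 (limma adjusted p = 0.28, 0.061 and 0.075).

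Rgs4, which limits Gi and Gq signaling and is expressed in mural cells and neurons, was the member that fell. Control samples were at 7.08, 8.55 and 10.9 FPKM (lowest, median and highest), and ANG II samples were at 4.49, 6.91 and 9.30 FPKM. The groups overlapped, but 11 of 12 ANG II samples lay below the control median and 6 lay below the lowest control. On the log2 scale Rgs4 fell by 0.27 ± 0.09 (SE, limma adjusted p = 0.017). The difference was negative in all 4 sets, at -0.03, -0.07, -0.56 and -0.43, the larger ones in samples 7 to 12. Without samples 7 to 9 it was -0.18 (limma adjusted p = 0.18) and without samples 10 to 12 it was -0.22 (limma adjusted p = 0.060). Its neighbour Rgs5 did not pass, at a log2 difference of 0.11 ± 0.06 (limma adjusted p = 0.16).

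Rgs5 ranged from 121 to 165 FPKM in control samples (median 149) and from 131 to 197 FPKM in ANG II samples (median 159). All but 3 ANG II samples lay above the control median, while only 2 lay above the highest control. Its 95% interval on the log2 scale ran from -0.01 to 0.23, the narrowest of the members. The log2 differences of the sets were 0.13, 0.37, -0.12 and 0.04.

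Rgs2 is the member with a preference for Gq alpha subunits, and its loss in mice is known to raise blood pressure. Control samples were at 13.9, 17.2 and 21.1 FPKM (lowest, median and highest), and ANG II samples were at 11.4, 14.5 and 24.4 FPKM. The ANG II range enclosed the control range, with 2 samples above the highest control and 5 below the lowest. The log2 difference was -0.12 ± 0.10 (SE, limma adjusted p = 0.37, 95% interval -0.32 to 0.09). In samples 10 to 12 it was -0.47, with the 3 ANG II samples at 12.3 to 13.9 FPKM and the 3 controls at 17.5 to 21.1 FPKM, but in the other sets it was 0.05, -0.09 and 0.04.

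Rgs3 and Rgs6 showed no difference past the test. Rgs3, which can also bind beta and gamma subunits, ranged from 13.3 to 24.8 FPKM in control samples (median 19.9) and from 14.9 to 27.0 FPKM in ANG II samples (median 21.5), and the groups overlapped almost fully. Its log2 difference was 0.06 ± 0.09 (SE, limma adjusted p = 0.66), and it was 0.48 in samples 4 to 6 and -0.13, 0.02 and -0.15 in the others. Rgs6, which pairs with the G protein beta subunit Gnb5 and restrains muscarinic signaling in atrial and nodal cells, ranged from 5.43 to 7.60 FPKM in control samples (median 6.72) and from 4.07 to 8.36 FPKM in ANG II samples (median 6.36). Its log2 difference was -0.08 ± 0.08 (SE, limma adjusted p = 0.47), and the 95% intervals were -0.13 to 0.25 for Rgs3 and -0.25 to 0.09 for Rgs6.

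Rgs14, a scaffold with a second site for Gi alpha subunits, ranged from 0.209 to 0.846 FPKM in control samples (median 0.598) and from 0.467 to 1.35 FPKM in ANG II samples (median 0.715). The groups overlapped, with 8 of 12 ANG II samples above the control median and 5 control samples below the lowest ANG II sample. The log2 difference was 0.13 ± 0.07 (SE, limma adjusted p = 0.15), and with a pseudocount of 0.1 it was 0.31 (limma adjusted p = 0.15).

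Rgs1, which damps chemokine receptor signaling in lymphocytes and monocytes, had the widest spread. Control samples were at 0.00687, 0.591 and 0.755 FPKM (lowest, median and highest), and ANG II samples were at 0.166, 0.744 and 4.27 FPKM. The ANG II mean of 1.08 ± 1.19 FPKM (SD, n = 12) rested on samples 6, 8 and 12, at 2.25, 1.81 and 4.27 FPKM, and the other nine were at 0.824 FPKM or below. The log2 difference was 0.38 ± 0.20 (SE, limma adjusted p = 0.14). With a pseudocount of 0.1 it was 0.82 (limma adjusted p = 0.16), and without ANG II sample 12 it was 0.24 (limma adjusted p = 0.24). The 3 control samples shared 1 value in samples 1 to 3 (0.716 FPKM) and again in samples 7 to 9 (0.755 FPKM).

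The values before the adjustment were recovered for 10 of 10 members, in steps of 0.01 FPKM. The 4 members called above passed an unadjusted 0.05 both ways. The mean difference over the sets for Rgs10 was 5.90 FPKM as deposited (exact within-set permutation test, two-sided, p = 0.0026) and 5.40 FPKM before the adjustment (exact p = 0.0053). For Rgs19 it was 1.98 FPKM (exact p = 0.012) and 1.69 FPKM (exact p = 0.035). For Rgs16 it was 0.603 FPKM (exact p = 0.016) and 0.552 FPKM (exact p = 0.046). For Rgs4 it was -1.59 FPKM (exact p = 0.010) and -1.52 FPKM (exact p = 0.012). These p-values are not adjusted for the number of genes. The exact test was run on the 10 members only, so no share over all genes can be set beside it. It used the same samples as the calls and is not separate support for them.

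For Rgs1 the picture changed. The mean difference over the sets was 0.621 FPKM as deposited (exact within-set permutation test, p = 0.094) and 0.766 FPKM before the adjustment (exact p = 7.5e-05). Before the adjustment, each of the 9 ANG II samples of the first 3 sets lay above every control sample of its set. In samples 1 to 3 they were 0.06, 0.12 and 0.12 FPKM above the controls, which were tied. In samples 4 to 6 they were 0.67, 0.66 and 1.82 FPKM above the lowest control and the highest control was 0.18 FPKM above it. In samples 7 to 9 they were 0.2, 1.11 and 0.17 FPKM above the 3 tied controls, whereas as deposited ANG II samples 7 and 9 were 0.481 and 0.531 FPKM below those controls. In samples 10 to 12 the ANG II samples were 0.09, 0.09 and 4.47 FPKM above the lowest control, against 0.1 and 0.11 FPKM for the other controls. The read depth behind differences as small as 0.06 FPKM was not estimated here.

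**Figure D3:**
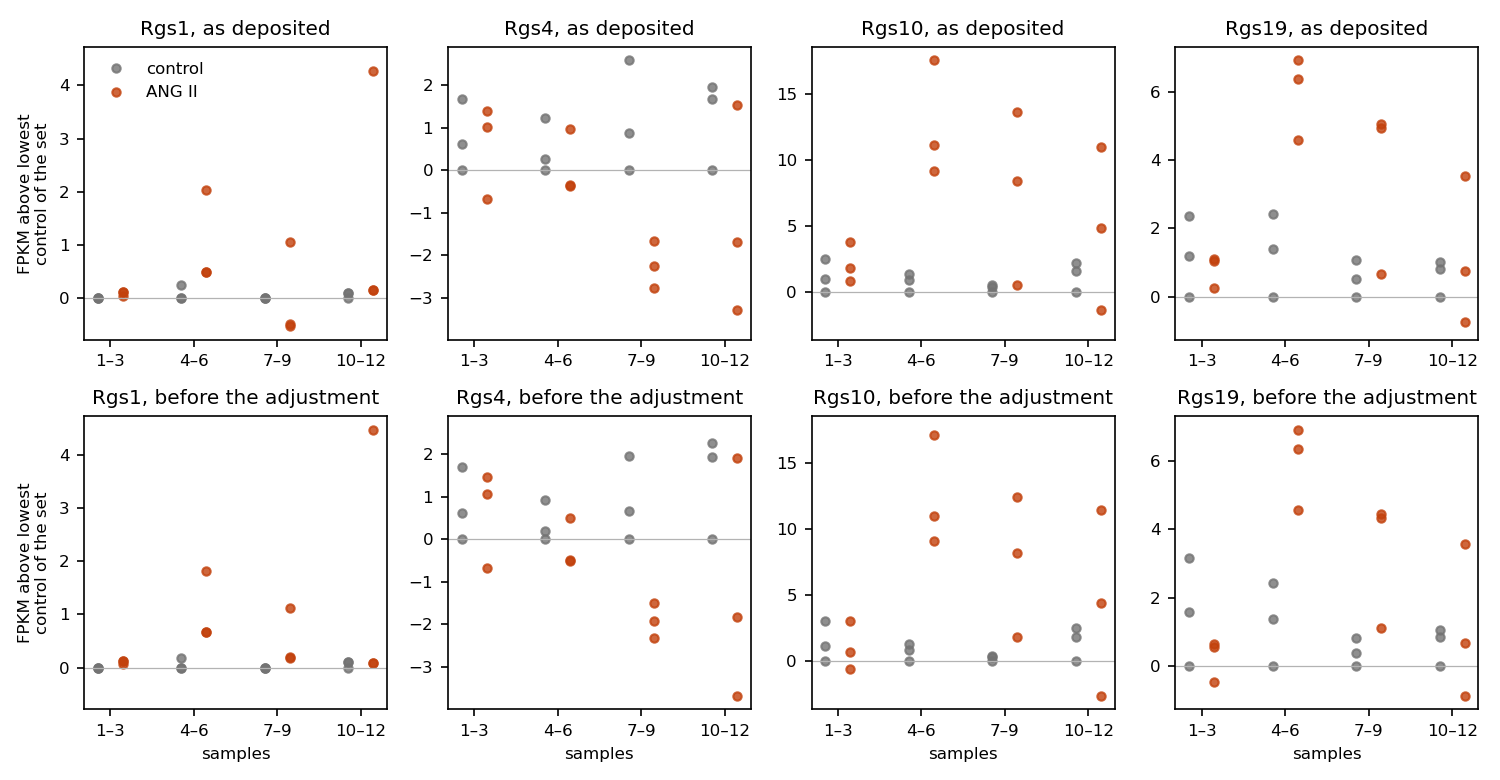
FPKM of each sample above the lowest control of its set (vertical axis) for Rgs1, Rgs4, Rgs10 and Rgs19 in the 4 sets (horizontal axis), as deposited (upper row) and before the adjustment (lower row). For Rgs1, ANG II samples 7 and 9 lie below the controls in the upper panel and above them in the lower panel.

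The remaining members did not pass either way. Rgs5 was at 11.3 FPKM (exact within-set permutation test, p = 0.11) and at 11.6 FPKM before the adjustment (exact p = 0.091), and Rgs14 at 0.146 FPKM (exact p = 0.12) and at 0.188 FPKM (exact p = 0.093). For Rgs14 the ANG II samples above all controls of their set were 5 of 12 as deposited and 9 of 12 before the adjustment. Of the 40 differences within sets, 4 changed sign, 1 each in Rgs2, Rgs6, Rgs10 and Rgs14. That of Rgs10 was in samples 1 to 3, where the difference was 0.969 FPKM as deposited and -0.343 FPKM before, so before the adjustment Rgs10 was higher in 3 of the 4 sets.

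The group by set interaction was tested on the deposited values, in which the adjustment had already changed the differences within sets, so it does not tell how far the sets differed before that step. At an adjusted p under 0.05 this called 0 of 10 members (limma, F test, Benjamini-Hochberg over all genes tested), against 7.49% of all genes. At an unadjusted p under 0.05 it called 3 members, Rgs19 (limma p = 0.010, adjusted p = 0.086), Rgs10 (limma p = 0.012, adjusted p = 0.094) and Rgs5 (limma p = 0.028, adjusted p = 0.15), against 25.0% of all genes. On the log2(FPKM + 1) scale, only Rgs10 was higher, and only Rgs4 lower, in all 4 sets as deposited, against 21.8% and 12.8% of all genes tested. In FPKM, Rgs1 was also higher in all 4 sets as deposited, by 0.088, 0.922, 0.013 and 1.46.

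Markers of several cell types moved with the members that rose. Of the macrophage and monocyte list, all 12 of 12 markers were higher in ANG II (among them Ly86, Cd68 and C1qb, with log2 differences of 1.14 ± 0.24, 0.92 ± 0.22 and 0.74 ± 0.17), and their summed level was 279 to 632 FPKM in control samples and 379 to 1107 FPKM in ANG II samples. Their median log2 difference was 0.07, 1.35, 1.08 and 0.15 in the 4 sets. Rgs10 and Rgs19, too, had their largest differences in samples 4 to 6 and the next in samples 7 to 9. After the mean of each group in each set was removed, the mean of these markers had a Pearson r of 0.85 with Rgs10 over 24 samples (Spearman rho 0.74, r 0.75 without ANG II samples 8 and 9). That relation lay within the ANG II group, where r was 0.90, whereas in the control group r was -0.06. For Rgs19 r was 0.72 (rho 0.64, r 0.60 without the same samples, 0.88 within the ANG II group and 0.22 within the control group). For Rgs16 r was 0.51 and for Rgs1 0.12. Rgs16 had a higher r with the pericyte and smooth muscle list (0.71), the endothelial list (0.67) and the fibroblast list (0.64) than with macrophages. The fibroblast list also had r = 0.67 with Rgs10 and with Rgs19, and its median log2 difference was 0.05, 1.27, 0.01 and 0.16 in the 4 sets. Its summed level was 672 to 1520 FPKM in control samples and 1088 to 2759 FPKM in ANG II samples. Marker and member come from the same libraries, and the part of these cell types in the members' differences was not tested.

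For the mural cells in which Rgs5 and Rgs4 are known, 4 of 12 pericyte and smooth muscle markers were higher and 3 were lower. Of all genes tested, 20.9% were higher and 12.6% lower. Vtn, a pericyte marker, fell by 0.76 ± 0.12 (log2, SE), Kcnj8 fell by 0.58 ± 0.09, and Mcam rose by 0.59 ± 0.11 (limma adjusted p under 0.05 in each). The summed level was 225 to 389 FPKM in control samples and 236 to 461 FPKM in ANG II samples. The mean of the list had r = 0.73 with Rgs4 over 24 samples, but Spearman rho was 0.46 and r was 0.39 without ANG II samples 11 and 12. The height of this r thus rests in part on those samples. With Rgs5 the list had r = 0.21 (rho 0.345, r 0.393 without the same samples). Within the control group r was 0.494 with Rgs4 and 0.499 with Rgs5, and within the ANG II group it was 0.815 and 0.065. The part of mural cells in the fall of Rgs4 was not tested.

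**Figure D4:**
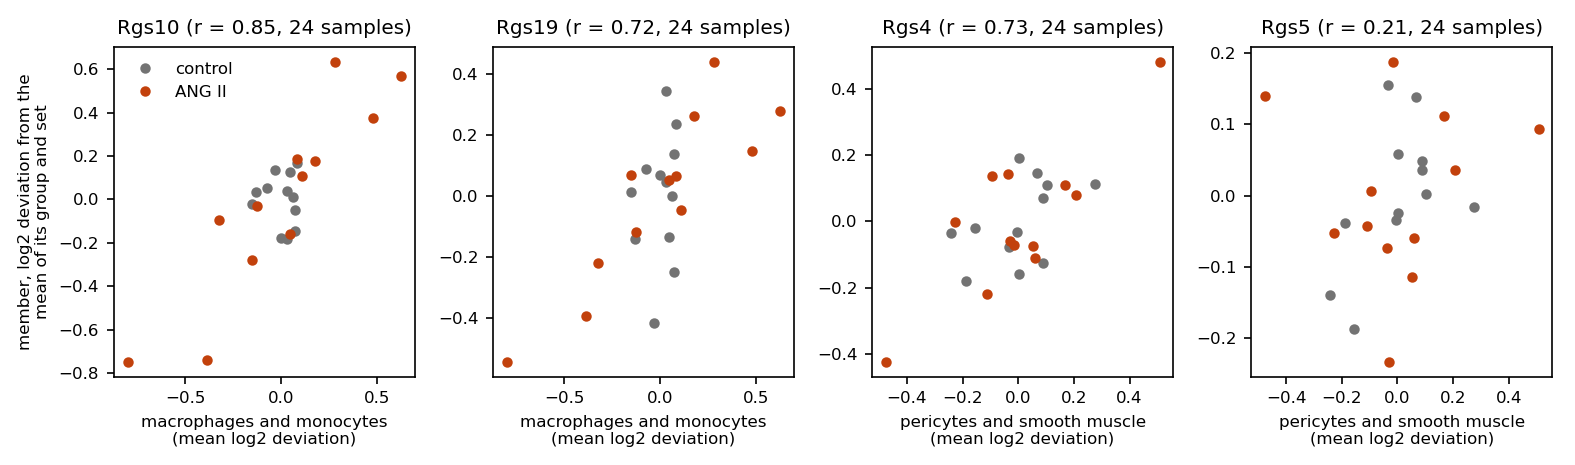
Deviation of a member from the mean of its group and set (vertical axis, log2) against the mean deviation of a marker list (horizontal axis, log2) in 24 samples, grey for control and orange for ANG II. The ANG II samples line up for Rgs10 (r = 0.85 over all samples), while the control samples form a compact cloud. For Rgs5 and the pericyte and smooth muscle list, r is 0.21 over all samples and 0.393 without ANG II samples 11 and 12.

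The members also differed in the genes most like them. With the means of group and set removed, the 3 genes with the highest Pearson r over 24 samples, among 11455 or 11456 genes with a mean of at least 1 FPKM, were Capg (0.97), S100a6 (0.96) and Ctsz (0.95) for Rgs10. For Rgs19 they were Ccl7 (0.94), Rab3il1 (0.90) and Ccl12 (0.90). For Rgs16 they were Dbndd2 (0.89), Vsir (0.87) and Mex3d (0.87), and for Rgs4 Zfp282 (0.84), Fyn (0.81) and Cables2 (0.79). For Rgs1 they were Bnip3, Cytip and Tlr4 (0.91 to 0.89), and for Rgs5 Cep57, Mbd6 and Usp8 (0.91 to 0.90). Rgs2 was most like Htra3, Pdgfc and Myl1 (0.83 to 0.82), Rgs3 like Il16, Tfdp1 and Mettl16 (0.90 to 0.88), Rgs6 like Spata6, Izumo4 and Epm2aip1 (0.89 to 0.88) and Rgs14 like Map3k15, Cbx2 and Surf2 (0.77 to 0.74). Among the members themselves, r was highest for Rgs16 and Rgs19 (0.73), Rgs3 and Rgs19 (0.73) and Rgs10 and Rgs19 (0.69), and it was lowest for Rgs1 and Rgs4 (-0.44). For Rgs1, ANG II sample 12 was at 4.27 FPKM, while ANG II samples 10 and 11 of the same set were at 0.166 FPKM. How far the r values of Rgs1 rest on sample 12 was not tested.

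Other genes of G protein signaling were read out by lists. Each count is to be set against all genes tested, of which 20.9% were higher and 12.6% lower. Of 20 other genes with an RGS domain that were tested, 6 were higher and 0 lower (median log2 difference 0.09). Rgs11, an R7 member, rose from 0.165 ± 0.127 to 0.495 ± 0.271 FPKM (SD, n = 12), with a log2 difference of 0.35 ± 0.08 (limma adjusted p = 0.0017). Snx13 and Snx14, sorting nexins with an RGS domain, rose by 0.17 ± 0.05 and 0.19 ± 0.06. Of 10 binding partners of RGS and alpha subunits, 3 were higher and 1 lower. Gpsm3, a Gi-binding protein of leukocytes, rose from 5.51 ± 1.32 to 8.98 ± 2.68 FPKM (log2 difference 0.60 ± 0.14, limma adjusted p = 0.0019), Gpsm2 rose by 0.39 ± 0.09, and Ppp1r9b (spinophilin, which binds RGS proteins) rose by 0.25 ± 0.09.

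Of 14 alpha subunit genes, 4 were higher and 2 lower. Gnai2, the alpha subunit that Gi receptors of leukocytes use, rose from 225 ± 17.5 to 272 ± 30.8 FPKM (log2 difference 0.27 ± 0.06, limma adjusted p = 0.0011). Gna13 rose by 0.27 ± 0.06 and Gna12 fell by 0.20 ± 0.05, while Gnaq, a subunit by which the ANG II receptor signals, was at 0.16 ± 0.07 (limma adjusted p = 0.085). Of 14 beta and gamma subunit genes, 3 were higher and 1 lower, with Gng12 and Gnb1 at 0.20 ± 0.06 and 0.19 ± 0.07 and Gnb3 at -0.44 ± 0.15 (limma adjusted p = 0.0090, 0.028 and 0.030).

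**Figure D5:**
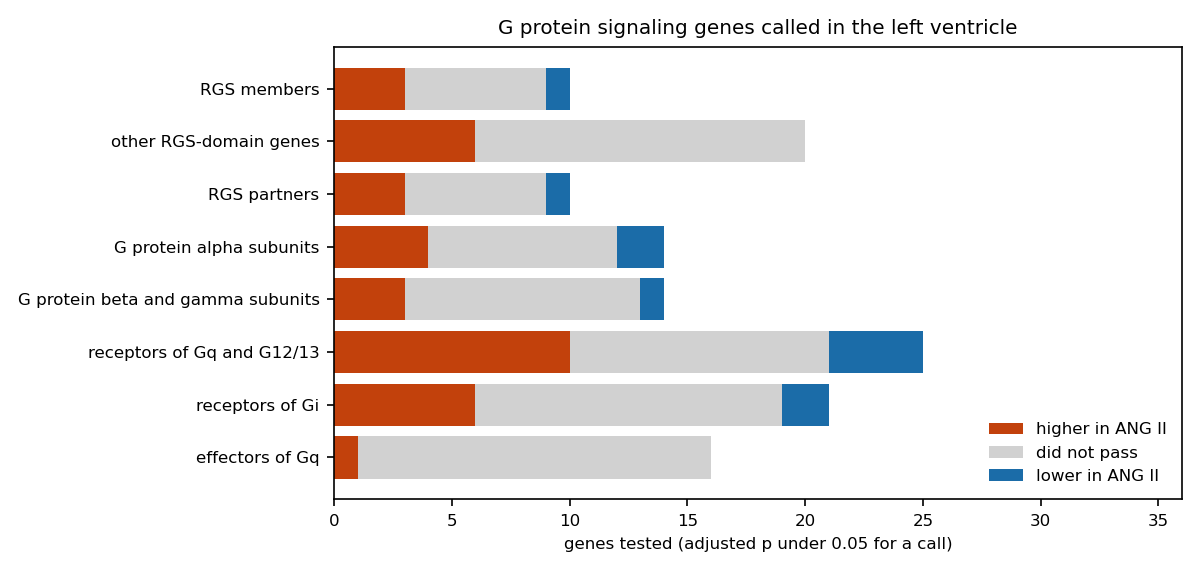
Number of genes tested (horizontal axis) in the RGS members and in 7 lists of G protein signaling genes, split into those higher in ANG II, those that did not pass an adjusted p of 0.05, and those lower. The members show 3 higher and 1 lower of 10, and the receptors of Gq and G12/13 show 10 higher and 4 lower of 25. Of all genes tested, 20.9% were higher and 12.6% lower.

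Of 25 receptors of the Gq and G12/13 classes, 10 were higher and 4 lower, against 20.9% and 12.6% of all genes tested. The alpha-1 adrenergic receptors Adra1d and Adra1b fell by 0.69 ± 0.11 and 0.57 ± 0.10 (log2, SE, limma adjusted p = 3.4e-05 and 0.00017). F2r, the thrombin receptor, rose by 0.61 ± 0.12, and Agtr1a, the ANG II type 1a receptor, fell from 25.7 ± 3.36 to 20.7 ± 2.68 FPKM (log2 difference -0.30 ± 0.07, limma adjusted p = 0.0030). Of 21 Gi receptors, 6 were higher and 2 lower, including the chemokine receptor Ccr2 (0.81 ± 0.22), the anaphylatoxin receptor C3ar1 (0.67 ± 0.19) and the sphingosine receptor S1pr1 (0.40 ± 0.10), all higher. Of 16 Gq effectors, 1 was higher, the protein kinase C gene Prkcd (0.43 ± 0.09, limma adjusted p = 0.0013), and 0 were lower.

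Across the series, the sum of FPKM per sample was 460715 to 515185 in the ANG II group and 482319 to 567727 in the control group. A table of FPKM holds no read counts, so the depth behind single values is not given. The summed level of 10 listed ventricular cardiomyocyte markers, among them Tnni3, Atp2a2 and Myl2, was 49660 to 62900 FPKM in control samples. In ANG II samples it was 38170 to 54460 FPKM, with 1 marker higher and 6 lower. These sums alone do not establish the label of left ventricle. The atrial and nodal list, in contrast, varied from -155 to 3240 FPKM in control samples and from -158 to 2398 FPKM in ANG II samples, and its median log2 difference was -0.31, 2.27, 0.09 and -0.03 in the 4 sets. It was thus higher in ANG II samples 4 to 6, the set with the largest differences of Rgs10, Rgs19 and Rgs16, and the part of atrial tissue in those differences was not tested. Further marker lists showed 4 higher and 1 lower of 10 for fibroblasts, 1 and 1 of 10 for endothelial cells, 3 and 1 of 10 for lymphocytes, 2 and 0 of 10 for granulocytes and platelets, 0 and 0 of 8 for atrial and nodal cells, 2 and 0 of 8 for neurons and Schwann cells, 3 and 0 of 17 for immediate early genes and 5 and 0 of 7 for red blood cells. The shares over all genes tested were 20.9% higher and 12.6% lower. Beside the members, the lymphocyte list had r = 0.79 with Rgs10 and the atrial and nodal list r = 0.69 with Rgs6 over 24 samples. The lymphocyte list lay at a low level, with 11 of its 12 markers at a mean under 1 FPKM. Its summed level was 3.25 to 6.85 FPKM in control samples and 2.8 to 11.8 FPKM in ANG II samples. No list had a marker at 0 in every sample.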

How the data were processed

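The deposited table gives 1 FPKM value per gene and sample for left ventricle mRNA (oligo(dT) enrichment, paired-end Illumina reads). The submitters' processing notes name HISAT, Bowtie2 and RSEM, and no genome build is given in the sources used here. The extraction text of the labels speaks of cells rather than heart tissue. The deposited values are not plain FPKM: 2741 (0.766%) are negative, 0 among the members, and ties between samples of the same set and group show an adjustment per gene in 4 sets of samples, which changed the differences between the groups within sets and which the authors' methods do not name. The tests on deposited values therefore rest on differences altered by that step. Negative values were set to 0.

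All 14026 genes with a mean of at least 0.1 FPKM were tested on log2(FPKM + 1) with limma 3.58.1 (R 4.3.3; group as the only term, intensity trend) and Benjamini-Hochberg adjustment. A DEG had an adjusted p under 0.05 and an absolute log2 difference over 0.5. Values before the adjustment were sought as whole steps of 0.01 FPKM per set. They keep differences within a set but not its offset. In a simulation without sets or an adjustment, limma called 199 of 200 genes changed by a log2 difference of 1.5 and 8 unchanged ones of 14026. The called members differed by less than that, so it does not tell how often differences of their size are found. The recovery was right for 96 of 100 genes simulated by its own model and wrong for 0. That simulation alone cannot tell whether the model holds for the deposited values.

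The 10 members, and the lists of other genes and markers, were chosen with earlier results of these data known. All members are named, with the 3 genes of smallest adjusted p in each other list (Agtr1a and Gnaq in any case) and the 3 genes most like each member. Marker lists that are set beside no member are given by counts. The study describes more mice per group than the 12 analysed here. Nothing in the labels ties a number to a shared litter or day. The p-values on deposited values measure the spread between these samples after the adjustment, which had shifted and scaled them set by set. The main fit, with group as its only term, did not allow for that step. Its p-values therefore do not measure the spread between the mice before it. Alternatives were median-ratio and quantile scaling, a smaller pseudocount (0.1), no filter on low values or a stricter one (1 FPKM), no trend, a Wilcoxon rank-sum test, the set as a term, the replicate block, and leaving out each mouse or set. Gene positions came from GENCODE vM21 and promoters from RefSeq.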

Additional observations from a re-analysis of the deposited data

How the results depend on the processing

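Of 368 alternative fits of the 10 members, 354 kept their direction and their side of the threshold. For each member, 24 of these fits left out only 1 mouse, and members not called in the main fit had no call to lose. The call ended in 3 fits for Rgs4, 1 for Rgs10, 4 for Rgs16 and 4 for Rgs19, each time in a fit other than those 24. Leaving out each of the 24 mice in turn gave 3 members higher, 1 lower and 1 DEG in every fit. Other fits changed these counts. Members higher in ANG II numbered 0 without samples 4 to 6, 1 without samples 7 to 9 and 2 without samples 10 to 12, where Rgs16 was lost, and with the replicate block 1. Members lower in ANG II numbered 0 with the replicate block, 0 without samples 7 to 9 and 0 without samples 10 to 12. Members meeting both DEG criteria numbered 2 with a pseudocount of 0.1, 3 without samples 1 to 3, 0 without samples 4 to 6 and 2 without samples 10 to 12. By the Wilcoxon rank-sum test 2 members were higher and 1 was lower, Rgs19 being the one lost (adjusted p = 0.080). Leaving out a set also leaves fewer samples, and beyond that the cause was not tested.

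The sign changed for Rgs2 without samples 10 to 12 (0.0017, limma adjusted p = 0.99) and for Rgs3 without samples 4 to 6 (-0.086, limma adjusted p = 0.54), neither of which passed in these alternatives. Within samples 4 to 6 alone Rgs3 did pass (0.48, limma adjusted p = 0.040), and so did Rgs5 (0.37, limma adjusted p = 0.042). Rgs10, Rgs16 and Rgs19 passed there too, among 3804 of the 14026 genes tested. The interaction with the set called 0 members in 5 of 5 alternatives. For samples of the same number, the correlations of 12 pairs of deviations ran from -0.557 to -0.0011. Of the ANG II samples, 0 correlated best with the control of their number. Samples of a number share a set, and the adjustment shifted both groups of a set together. These correlations therefore cannot tell whether the numbers pair the samples. The replicate block called 2824 genes, against 4697 without it, and Rgs4, Rgs16 and Rgs19 then had limma adjusted p = 0.077, 0.079 and 0.085. Without samples 4 to 6, 2810 genes were called and 553 met both DEG criteria, against 831 in all samples, and a pseudocount of 0.1 gave 1489. Quantile normalization moved the median log2 difference of all genes from 0.05 to -0.02 and ended no member's call. Rgs1 and Rgs14 were not tested with a mean of at least 1 FPKM. Rgs1, Rgs14 and Rgs16, near or below 1 FPKM, are those whose log2 differences depend most on the pseudocount, and without read counts no limit of detection can be given for them.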
